A study of Saccharomyces cerevisiae with 12 samples.

Results

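The genotype by carbon source interaction asks, gene by gene, whether yeast lacking *MRN1* answered a change of carbon source differently from wild-type yeast. It was measured in all 12 RNA-seq libraries of the series, 12 of 12, in 4 groups of 3 replicates. The groups were *mrn1Δ* in respiratory growth, *mrn1Δ* in fermentative growth, wild-type in respiratory growth and wild-type in fermentative growth. All cells were BY4741, a haploid *MATa* laboratory strain that carries deletions in *HIS3*, *LEU2*, *MET17* and *URA3*, and in *mrn1Δ* a kanamycin cassette takes the place of *MRN1*. No strain with *MRN1* put back was among the libraries. Fermentative cells were harvested in log phase at an OD600 of 0.6 from YEPD, a rich medium with 2% glucose. Respiratory cells were grown in the same way, then transferred to YEPEG, which holds 2% ethanol and 2% glycerol in place of glucose, and harvested after 20 minutes. The respiratory libraries therefore show an early response to the change, not steady growth on the new carbon source. The shift of a gene is the log2 ratio of its level in respiratory over fermentative cells of a genotype, and the interaction is the shift in *mrn1Δ* minus the shift in wild-type. A positive interaction means that the gene rose more, or fell less, in *mrn1Δ*.

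On glucose, budding yeast ferments and keeps the genes for other carbon sources repressed. When glucose is withdrawn, the kinase Snf1 becomes active and relieves this repression, and the activators Adr1 and Cat8 turn on genes for the use of ethanol, lactate, fatty acids and acetate. At the same time signalling through protein kinase A and TORC1 drops, the stress activators Msn2 and Msn4 enter the nucleus, and the genes for building ribosomes are shut down. Mrn1 is an RNA-binding protein with RNA-recognition motifs that binds many mRNAs for cell wall proteins.

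The authors deposited estimated counts for 5917 coding sequences, and 5828 passed the expression filter and were tested. Library totals ranged from 16231559 to 26542199 counts. *MRN1* had 2 to 15 counts per library in *mrn1Δ* and 1676 to 3303 in wild-type, so that every library matched its genotype label. *LEU2*, *MET17* and *URA3* were under 0.6 CPM (counts scaled to library size with TMM normalization) in all 12 libraries. Reads of *HIS3*, which in this strain lacks only part of the gene, stayed at 16.8 to 60.2 CPM. The *MATa* receptor gene *STE2* had 78.2 to 199.6 CPM and the *MATα* pheromone gene *MF(ALPHA)1* 0.126 to 1.25 CPM. The wild-type fermentative replicate 1 stood somewhat apart, with r = 0.980 and 0.983 across genes (log2 scale) against its 2 fellow replicates, where its 2 fellows had 0.995 with each other. Counts are from whole cultures, in which fewer cells expressing a gene and less RNA per cell cannot be told apart.

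Most genes moved with the carbon source in both genotypes. After the transfer 40.8% of the tested genes were higher and 38.7% lower in *mrn1Δ*, and 39.5% were higher and 39.4% lower in wild-type (edgeR quasi-likelihood test, Benjamini-Hochberg adjusted p under 0.05, as in all calls here). The response was nearly the same in both genotypes in its pattern and larger in *mrn1Δ* in its size. Over the 5495 genes with a mean of at least 5 CPM, the *mrn1Δ* and wild-type shifts, which share no library, had r = 0.979 and rho = 0.973 across genes, which are not independent replicates. The SD of the shifts over these genes was 1.26 in *mrn1Δ* and 1.15 in wild-type. Taking each respiratory library against each fermentative library of its genotype gave 9 SDs from 1.19 to 1.26 in *mrn1Δ* and 9 from 1.08 to 1.18 in wild-type, with no overlap. These 9 pairs reuse 6 libraries and are not independent.

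The interaction was called for 188 genes, 65 higher and 123 lower in the *mrn1Δ* shift. These made up 1.12% and 2.11% of the features tested. Before adjustment, 1141 passed a p of 0.05. The median interaction over all tested genes was 0.01, and the smallest called value was 0.34 in size. Among the 188 genes, 169 (89.9%) were amplified, which means that both shifts passed the test in the same direction and that of *mrn1Δ* was the larger. Of these, 59 rose and 110 fell in both genotypes. The amplified genes that rose had a median shift of 2.65 in *mrn1Δ* and 2.00 in wild-type, and those that fell had a median shift of -2.27 in *mrn1Δ* and -1.76 in wild-type. Only 6 genes were damped (same direction, smaller in *mrn1Δ*) and 4 reversed (both shifts passed, in opposite directions). A further 5 genes shifted past the threshold in *mrn1Δ* only and 4 in wild-type only. With 1 library left out, these counts ran from 1 to 48 and from 1 to 34, the highest without wild-type fermentative replicate 2 and the lowest without *mrn1Δ* respiratory replicate 3.

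**Figure D1:**
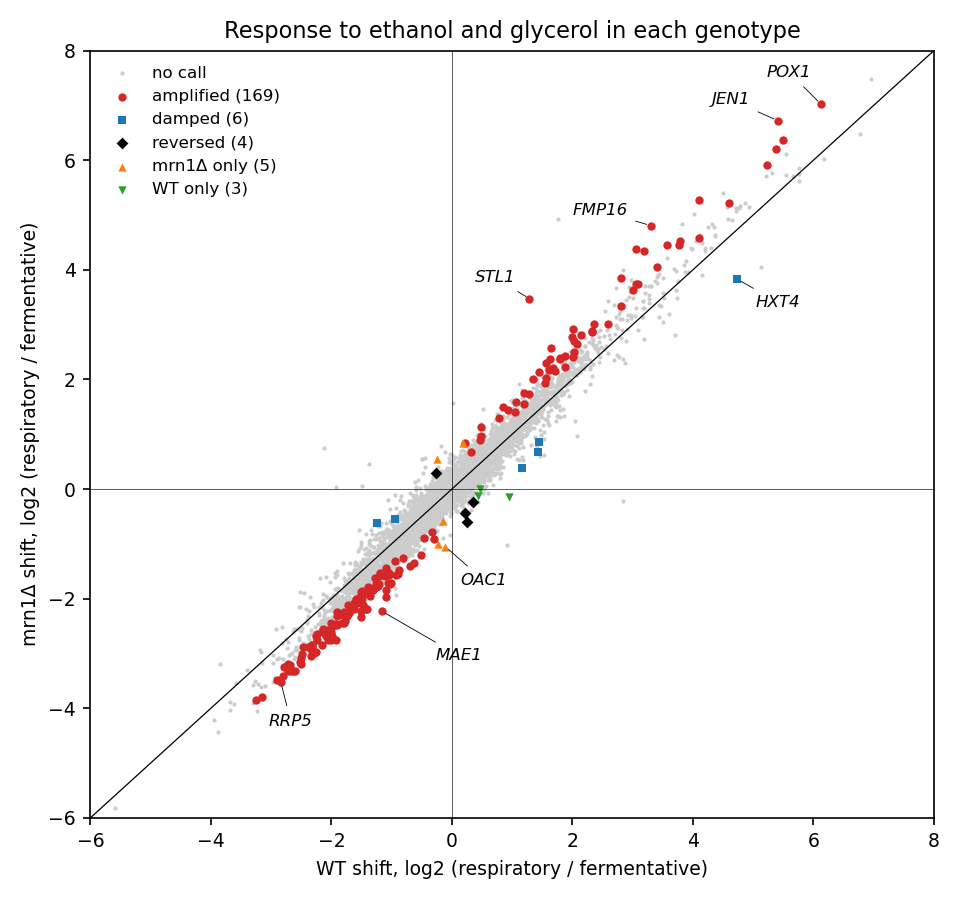
Shift of each gene with at least 5 CPM in *mrn1Δ* (vertical axis) against wild-type (horizontal axis), both as log2 of respiratory over fermentative level, with the line of equal shifts. Amplified genes (red) lie above the line on the right and below it on the left; 1 of the 4 genes called in wild-type only is under 5 CPM and is not drawn.

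The number of calls depended on single libraries. Without wild-type fermentative replicate 1, the library that stood apart, there were 236 calls, 82 higher and 154 lower. Without wild-type fermentative replicate 2 there were 501. Without wild-type fermentative replicate 3 there were 91, without *mrn1Δ* fermentative replicate 1 or 2 there were 89 or 84, without wild-type respiratory replicate 1 there were 106, and without *mrn1Δ* respiratory replicate 1, 2 or 3 there were 96, 83 or 81. In each of these fits all 188 genes kept the sign of their interaction. The genes were chosen on all 12 libraries, most of which each fit reuses, so that a kept sign was likely from the start. Between 73.9% and 92.4% of the calls were amplified in every fit run. A core of 64 genes was called under all 21 alternative settings, and the genes described in detail come from it unless stated otherwise.

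The genotypes differed mainly after the transfer. Tested alone, the difference between *mrn1Δ* and wild-type in respiratory cells was called higher for 4.43% and lower for 6.25% of genes, and in fermentative cells higher for 2.26% and lower for 1.03%. Of the 188 genes with an interaction, 141 passed for the genotype difference in respiratory cells only, 21 in fermentative cells only, 13 in both and 13 in neither. Lower genes made up 95 of the 141, and higher genes 46. These tests share libraries with the interaction and describe where the levels differ.

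The size of the interaction mostly followed the size of the response. Genes that rose by over 3 log2 units in wild-type had a median interaction of 0.35, with 81 of 101 above 0. Those that rose by 2 to 3 units had a median of 0.24, and those within 0.5 units of no change had 0.02. Genes that fell by 2 to 3 units had a median of -0.32, with 110 of 141 below 0. Those that fell by over 3 units had -0.29, with 17 of 22 below 0, and thus no larger a median. Because noise in wild-type enters both the bins and the interaction, the genes were also binned by their shift in *mrn1Δ*, where the noise acts in the opposite sense. The medians then ran from -0.48 for genes that fell by over 3 units to 0.42 for genes that rose by over 3 units.

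**Figure D2:**
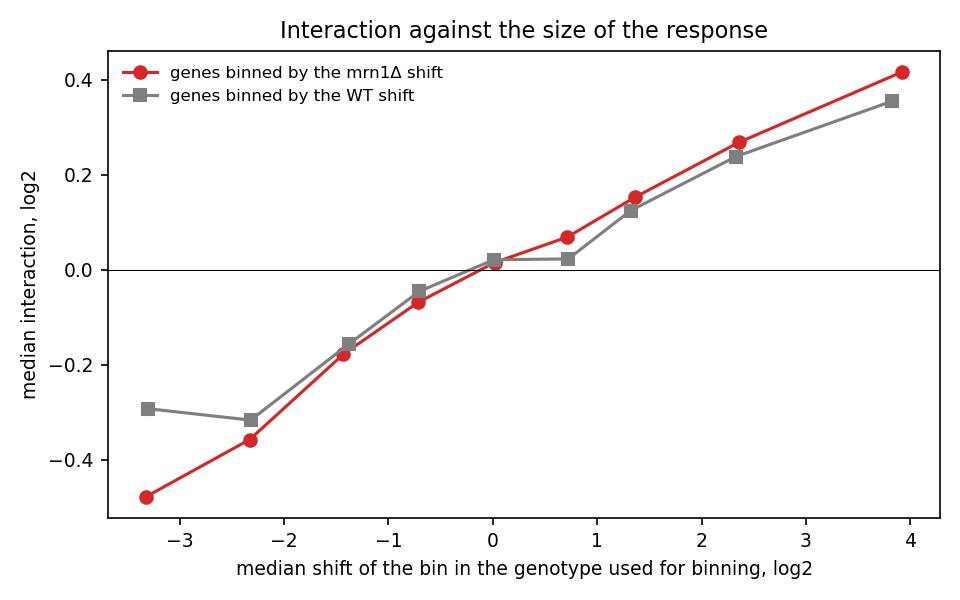
Median interaction (vertical axis, log2) of genes grouped by the size of their shift, against the median shift of each bin (horizontal axis, log2), with bins made from the *mrn1Δ* shift (red) or the wild-type shift (gray). With either binning the medians lie below 0 for genes that fell and above 0 for genes that rose by over 1 log2 unit.

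A few glucose-repressed genes rose more in *mrn1Δ*. *STL1*, which encodes a glycerol-proton symporter of the plasma membrane, had the largest positive interaction among the called genes of at least 5 CPM. It stood at 94.9, 106 and 112 CPM in respiratory and 8.51, 10.2 and 9.43 CPM in fermentative *mrn1Δ* cells, against 18.8, 31.8 and 26.9 CPM in respiratory and 9.82, 9.61 and 12.6 CPM in fermentative wild-type cells. The respiratory *mrn1Δ* libraries were all above the respiratory wild-type libraries, and the fermentative libraries of both genotypes overlapped. *STL1* thus rose 11.1-fold in *mrn1Δ* and 2.44-fold in wild-type, an interaction of 2.19 ± 0.24 (log2 ± SE, adjusted p = 0.0012). *JEN1*, the lactate and pyruvate transporter, had 1514, 1544 and 1328 CPM in respiratory and 13.2, 13.1 and 15.3 CPM in fermentative *mrn1Δ* cells, against 567, 756 and 663 CPM in respiratory and 13.7, 15.6 and 17.6 CPM in fermentative wild-type cells. Again only the respiratory levels were apart. *JEN1* rose 106-fold in *mrn1Δ* and 42.6-fold in wild-type, with an interaction of 1.31 ± 0.17 (adjusted p = 0.0017). *CYB2*, the mitochondrial lactate dehydrogenase that acts on what Jen1 imports, averaged 154 ± 4.05 CPM in respiratory *mrn1Δ* cells and 80.3 ± 10.8 CPM in respiratory wild-type cells (SD, n = 3 each). Its interaction was 1.04 ± 0.13 (adjusted p = 0.0014).

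These 3 genes were the calls among 28 tested genes of a list of glucose-repressed transporters and first steps of carbon use, none of which was called lower. The share called higher over all tested genes was 1.12%. The median interaction of the list was 0.21, with 21 of 28 above 0, against 0.01 over all tested genes. The list had a median wild-type shift of 2.75. All genes that rose by 2 to 3 units in wild-type had a median interaction of 0.24, with 115 of 137 above 0. The lean of the list was thus no larger than that of genes with a response of like size. The list also holds genes with a response of almost equal size in both genotypes, and thus did not move as a block. The activator gene *CAT8* had a shift of 3.36 in *mrn1Δ* and 3.43 in wild-type, and the invertase gene *SUC2* had 3.92 in *mrn1Δ* and 4.15 in wild-type. In gluconeogenesis and the glyoxylate cycle all 16 genes had an interaction above 0, with a median of 0.46, but none passed the test. The 4 closest to the threshold were *CAT2*, carnitine acetyltransferase, at 0.74 ± 0.21 (adjusted p = 0.071), *MDH3*, peroxisomal malate dehydrogenase, at 0.30 ± 0.09 (adjusted p = 0.079), *ACS1*, the acetyl-CoA synthetase gene induced without glucose, at 0.58 ± 0.17 (adjusted p = 0.082), and *ICL1*, isocitrate lyase, at 0.49 ± 0.15 (adjusted p = 0.088).

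Several genes of fatty acid breakdown in the peroxisome rose more in *mrn1Δ*. Of 18 tested genes 5 were higher, namely *POX1*, *FOX2*, *POT1*, *PXA2* and *ECI1*, none was lower, and the median interaction was 0.48. The share called higher over all tested genes was 1.12%. The median wild-type shift of the list was 2.68. All genes that rose by 2 to 3 units in wild-type, which can include genes of the list, had a median interaction of 0.24. Those that rose by over 3 units had 0.35, with 19 of 101 called. Without wild-type fermentative replicate 1, 8 of the 18 were called, and without any other single library between 4 and 7. *POX1*, the acyl-CoA oxidase of the first step, had 1172, 1093 and 999 CPM in respiratory and 8.64, 8.62 and 7.7 CPM in fermentative *mrn1Δ* cells. In wild-type it had 625, 776 and 720.2 CPM in respiratory and 9.7, 9.35 and 11.5 CPM in fermentative cells. *POX1* rose 130-fold in *mrn1Δ* and 69.8-fold in wild-type, and its interaction was 0.90 ± 0.15 (adjusted p = 0.0069). *FOX2*, the multifunctional enzyme of the middle steps, averaged 1333 ± 64 CPM in respiratory *mrn1Δ* cells and 799 ± 66.2 CPM in respiratory wild-type cells (SD, n = 3 each). In fermentative cells it averaged 17.97 ± 0.93 CPM in *mrn1Δ* and 19.1 ± 0.12 CPM in wild-type. The interactions of *FOX2* (0.83 ± 0.11), *PXA2* (0.66 ± 0.11), a subunit of the importer of fatty acids, and *ECI1* (0.65 ± 0.11), an enoyl-CoA isomerase, were called under all alternatives. *POT1*, the thiolase of the last step, had an interaction of 0.88 ± 0.21 with an adjusted p of 0.041, and it was lost in 10 of 12 fits that left out a library, with an adjusted p of up to 0.12. Averaged over the 18 genes as log2(CPM + 1), the libraries lay at 7.40 to 7.52 in respiratory and 4.28 to 4.30 in fermentative *mrn1Δ* cells, against 6.98 to 7.14 in respiratory and 4.27 to 4.40 in fermentative wild-type cells.

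**Figure D3:**
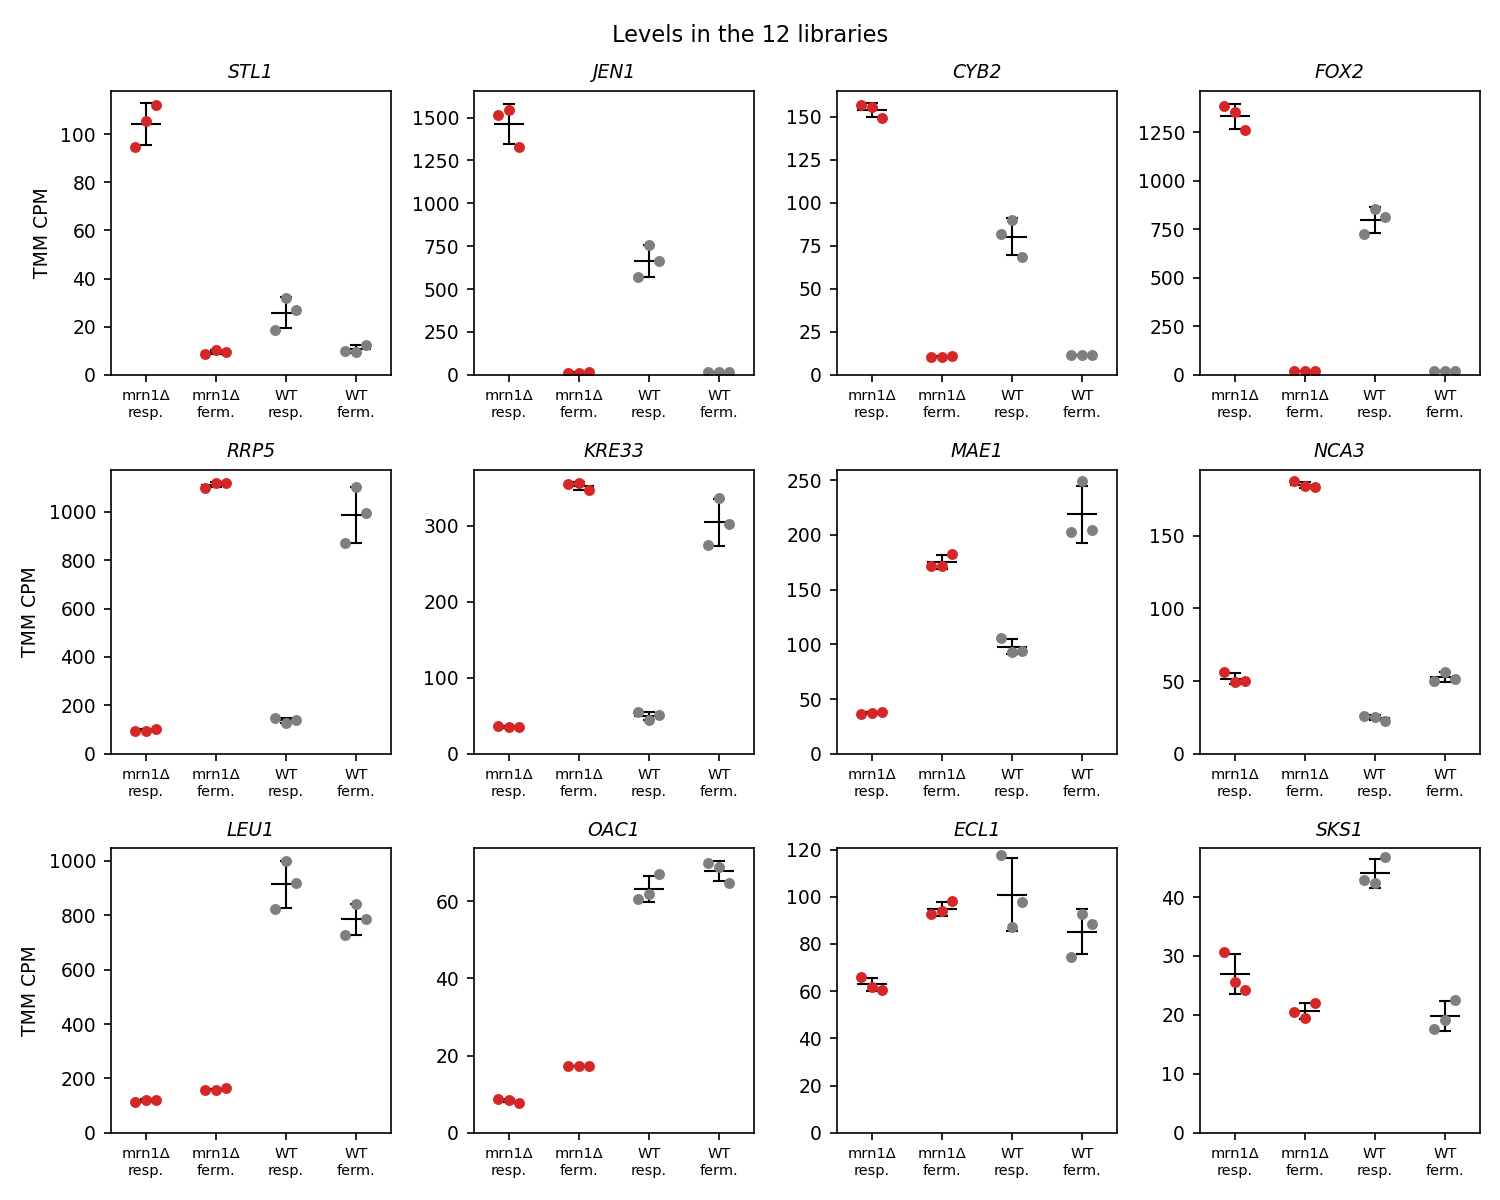
Level of 12 genes in each library (points, TMM-normalized CPM from 0), with the mean and SD of each group (black), for *mrn1Δ* (red) and wild-type (gray) in respiratory and fermentative growth. *STL1*, *JEN1*, *CYB2* and *FOX2* differ between genotypes after the transfer, *NCA3*, *LEU1* and *OAC1* already before it.

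Other amplified genes that rose had varied functions. *FMP16*, a mitochondrial protein of unknown function, had 73.7, 63.9 and 79.4 CPM in respiratory and 2.3, 2.61 and 2.86 CPM in fermentative *mrn1Δ* cells, against 50.2, 43.6 and 35.3 CPM in respiratory and 4.33, 3.9 and 5.0 CPM in fermentative wild-type cells. It was thus higher in *mrn1Δ* after the transfer and lower in *mrn1Δ* before it, and its interaction was 1.51 ± 0.22 (adjusted p = 0.0032). *ALD3*, a stress-induced cytosolic aldehyde dehydrogenase that shares reads with a similar gene, had an interaction of 1.32 ± 0.19 (adjusted p = 0.0034). *NQM1*, a transaldolase paralog, had 0.90 ± 0.14 (adjusted p = 0.0037), and *RRT6* had 0.92 ± 0.16 (adjusted p = 0.0092). *PIC2*, a mitochondrial copper and phosphate carrier, had 0.68 ± 0.11 (adjusted p = 0.0069), and *TFS1*, an inhibitor of carboxypeptidase Y, had 0.57 ± 0.10 (adjusted p = 0.0077). *GPG1* (0.94 ± 0.20, adjusted p = 0.023) and *HBT1* (0.78 ± 0.17, adjusted p = 0.026) were also among the 15 highest, and were lost in 6 and 8 of the 12 fits that left out a library. *UIP4*, which lies beside the deleted gene, rose 20.4-fold in *mrn1Δ* and 9.12-fold in wild-type, an interaction of 1.16 ± 0.17 (adjusted p = 0.0032). *UIP4* (chrXVI:194512-195426, minus strand, R64) starts downstream of *MRN1* (chrXVI:195950-197788, minus strand), now the place of the cassette, and a part of the cassette in its change was not tested. On the other side, *RTC6* had an interaction of 0.38 ± 0.22 (adjusted p = 0.35).

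The mitochondrial lists leaned the same way with few calls. Over all tested genes 1.12% were called higher and 2.11% lower. Among 41 nuclear genes of the respiratory chain and ATP synthase 3 were higher and none lower, with a median of 0.35. *NDE2*, an external NADH dehydrogenase, averaged 41.1 ± 1.54 CPM in respiratory and 7.90 ± 0.71 CPM in fermentative *mrn1Δ* cells, against 29.6 ± 3.08 CPM in respiratory and 9.66 ± 0.83 CPM in fermentative wild-type cells (SD, n = 3 each). Its interaction was 0.76 ± 0.14 (adjusted p = 0.01). *CYC7*, the cytochrome c isoform of low-oxygen growth, had 1.18 ± 0.26 (adjusted p = 0.024), and *COX8*, a subunit of cytochrome c oxidase that moved past the threshold in *mrn1Δ* only, had 0.67 ± 0.17 (adjusted p = 0.042). *CYC7*, which shares reads with a similar gene, was lost in 7 and *COX8* in 10 of the 12 fits that left out a library. No gene passed among 23 of the tricarboxylic acid cycle (median 0.13), 69 mitochondrial ribosomal proteins (0.18) or 7 protein genes of the mitochondrial genome (0.20). Averaged as log2(CPM + 1), the mitochondrial ribosomal list lay at 5.11 in wild-type fermentative replicate 1 and at 4.66 and 4.74 in replicates 2 and 3. The mitochondrial genome list ranged from 6.44 to 7.02 in respiratory wild-type cells. Both lists thus varied within a group by more than their median interaction. Trehalose and glycogen metabolism had 2 higher genes of 19, the trehalase genes *NTH2* and *ATH1*, with a median of 0.25. The median wild-type shift of that list was 2.72, and all genes that rose by 2 to 3 units had a median interaction of 0.24. *NTH2* (adjusted p = 0.048) was lost in 11 and *ATH1* (adjusted p = 0.027) in 6 of the 12 fits that left out a library, and *NTH2* also in 5 of the 9 other settings. The heat shock and general stress list had 2 higher of 30, *ALD3* and *TFS1*, and a median of -0.04, with 13 of 30 above 0.

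Ribosome biogenesis fell further in *mrn1Δ*. Of 84 tested genes for the assembly of ribosomes and for RNA polymerase I, 37 were lower and none higher, and 82 of 84 had an interaction below 0. Over all tested genes 2.11% were called lower. The median interaction of the list was -0.41. All genes that fell by 2 to 3 units in wild-type, which can include genes of the list, had a median of -0.32. Of those 141 genes 110 were below 0 and 38 were called in either direction. No bin without the genes of the list was made, so that how far other strongly falling genes shared the larger fall was not tested. The list had a median shift of -2.46 in *mrn1Δ* and -2.03 in wild-type. Averaged over the list as log2(CPM + 1), the respiratory libraries lay at 4.74 to 4.83 in *mrn1Δ* and at 5.06 to 5.27 in wild-type, with no overlap. The fermentative libraries lay at 7.18 to 7.22 in *mrn1Δ* and at 7.12 to 7.22 in wild-type, which overlap. The count of 37 moved between 15 (without *mrn1Δ* respiratory replicate 2) and 49 (without wild-type fermentative replicate 2). It fell by over 1.5 times also without wild-type fermentative replicate 3 (20), *mrn1Δ* fermentative replicate 1 or 2 (20 or 22), wild-type respiratory replicate 1 (19), and *mrn1Δ* respiratory replicate 1 or 3 (23 or 19).

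*RRP5*, needed to process the RNA of both ribosomal subunits, had 95.3, 93.8 and 101 CPM in respiratory *mrn1Δ* cells and 148, 126 and 140.2 CPM in respiratory wild-type cells. In fermentative cells it had 1099.6, 1117 and 1119.8 CPM in *mrn1Δ*, against 870.3, 1101 and 994 CPM in wild-type. Its interaction was -0.68 ± 0.13 (adjusted p = 0.01). *KRE33*, which acetylates ribosomal RNA, averaged 35.5 ± 1.03 CPM in respiratory *mrn1Δ* cells and 50.3 ± 5.20 CPM in respiratory wild-type cells (SD, n = 3 each), with an interaction of -0.72 ± 0.12 (adjusted p = 0.0069). Interactions of similar size were called for *UTP13* (-0.58 ± 0.09), *UTP4* (-0.53 ± 0.10), *UTP8* (-0.60 ± 0.11) and *UTP15* (-0.53 ± 0.10) of the small subunit processome. The same held for *RLP24* (-0.66 ± 0.12) and *NOG1* (-0.53 ± 0.11) of the large subunit, and for *ENP1* (-0.67 ± 0.11), *RRP12* (-0.64 ± 0.12), *PUF6* (-0.70 ± 0.13) and the box C/D protein *NOP56* (-0.54 ± 0.11). Outside the list, *KRI1* (-0.84 ± 0.15, adjusted p = 0.01) and *PWP1* (-0.74 ± 0.10, adjusted p = 0.0026), which also act in ribosome assembly, were among the 15 lowest genes. The ribosomal proteins themselves leaned the same way by less and without a call. Of 138 genes for cytosolic ribosomal proteins none passed the test in either direction. Their median interaction was -0.13, with 113 of 138 below 0 and a median shift of -1.57 in *mrn1Δ* and -1.46 in wild-type. All genes that fell by 1 to 2 units in wild-type had a median interaction of -0.16.

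The PAC element (GATGAG, searched on both strands from 250 bases before to 50 bases after the start codon) is a promoter motif of ribosome biogenesis genes. It was found in 80 of 84 genes of the list (95.2%) and in 63.4% of the 123 lower genes, against 20.3% of 5798 windows read from the R64 genome. Of 128 genes that fell over 4-fold in wild-type without an interaction call, 51.6% held it, a share closer to that of the lower genes than to that of all windows. Uncalled genes of the list were not taken out of these 128. The copies nearest the start codon of 4 of the lower genes are printed as 30 bases of the coding strand, 5′ to 3′, with the motif in capitals (CTCATC where it lies on the other strand).
KRI1, chrXIV:55961-55990, minus strand: tatcaatctcatCTCATCtagttaacagaa
PWP1, chrXII:543833-543862, plus strand: tcgatgagctgaGATGAGtttgaaagaagc
RRP5, chrXIII:731257-731286, minus strand: attttaagatgaGATGAGctaaacccttct
KRE33, chrXIV:375168-375197, plus strand: acaatgagatgaGATGAGgtgctgaagatg
Each of the 4 genes held 2 copies in the 500 bases before its start codon, and both copies lie within the stretch printed. *RIX7*, which was also called under all settings and is not printed, held 1 copy there.

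The stress response element (AGGGG on either strand), which binds Msn2 and Msn4, lay in the window of 46.2% of the 65 higher genes and 8.13% of the 123 lower genes, against 21.5% of all windows. Of 209 genes that rose over 4-fold in wild-type without an interaction call, 47.8% held it. The share among the higher genes was thus close to that of other strongly induced genes. The Hap complex motif (CCAAT on either strand) was in 55.4% of the higher and 30.9% of the lower genes, against 43.4% of all windows. It was in 43.1% of the genes that rose and 43% of those that fell over 4-fold in wild-type without a call. In the 500 bases before the start codon the shares lay closer together, at 66.2% of higher, 56.1% of lower and 62.5% of all genes. The Gcn4 motif (TGACTCA) was in 3.08% of higher and 4.07% of lower genes (2.74% of all windows), and the MCB motif (ACGCGT) in 3.08% of higher and 4.07% of lower genes (3.14% of all windows). The carbon source response element was in none of the called genes and in 4 of 5798 windows. No test was made of these shares, and a match is no proof of a working site. For 5 of the 15 genes with the highest interactions, chosen after their values were seen, the copy nearest the start codon within 500 bases is printed in the same way, with CCCCT in capitals where the motif lies on the other strand.
STL1, chrIV:1507818-1507847, plus strand: cttcaattttgtCCCCTtcaacgctgcttg
JEN1, chrXI:21937-21966, plus strand: ggtcttttgcccCCCCTtctactataatgc
FMP16, chrIV:588563-588592, minus strand: ttcctgtatcaaCCCCTtcttcctgtacag
CYB2, chrXIII:167512-167541, minus strand: atatctccttgcCCCCTcctcctgttcgag
ALD3, chrXIII:601094-601123, minus strand: ttgttgatcagcCCCCTtcttaagctgatt

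**Figure D4:**
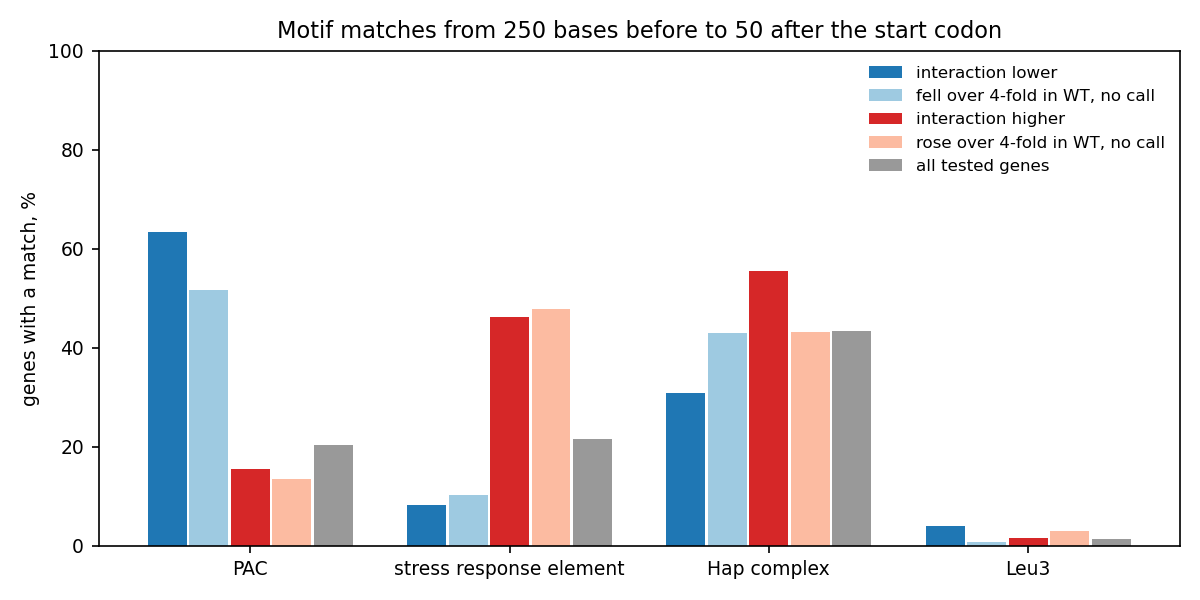
Share of genes (vertical axis, %) with a match to each motif from 250 bases before to 50 after the start codon, for genes with a lower or a higher interaction, for genes that fell or rose over 4-fold in wild-type without a call, and for all tested genes. PAC was in 63.4% of lower genes and 51.6% of the other strongly falling genes, and the stress response element in 46.2% of higher genes and 47.8% of the other strongly induced genes.

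Branched-chain amino acid synthesis also held many lower genes. Leu3 is the transcription factor that binds the promoters of this pathway and is switched on by an intermediate of leucine synthesis. Of 13 tested genes 6 were lower (*LEU1*, *LEU9*, *ILV2*, *ILV3*, *BAT1* and *OAC1*) and none higher, 12 of 13 had an interaction below 0, and the median was -0.44. The share called lower over all tested genes was 2.11%. The median wild-type shift of the list was -0.52, and all genes that fell by 0.5 to 1 unit in wild-type had a median interaction of -0.05. Between 5 and 7 of the 13 were called when a library was left out. Averaged over the list as log2(CPM + 1), the fermentative libraries lay at 7.79 to 7.88 in *mrn1Δ* and at 8.36 to 8.61 in wild-type. The respiratory libraries lay at 6.76 to 6.83 in *mrn1Δ* and at 7.77 to 7.96 in wild-type. The list was thus lower in *mrn1Δ* already before the transfer, without overlap. *OAC1* encodes the mitochondrial carrier that exports the leucine precursor isopropylmalate. It had 8.83, 8.39 and 7.83 CPM in respiratory and 17.2, 17.3 and 17.4 CPM in fermentative *mrn1Δ* cells, against 60.5, 61.9 and 67 CPM in respiratory and 69.8, 69 and 64.8 CPM in fermentative wild-type cells. The carbon source hardly changed its level in wild-type, and every *mrn1Δ* library was below every wild-type library. The interaction was -0.95 ± 0.10 (adjusted p = 0.00053). *OAC1* was already 0.255 times the wild-type level in fermentative cells and was 0.132 times that level after the transfer.

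*LEU1*, isopropylmalate isomerase, had a reversed response. It had 111, 121 and 121 CPM in respiratory and 157, 158 and 163 CPM in fermentative *mrn1Δ* cells, against 824, 999 and 918 CPM in respiratory and 728, 841 and 787 CPM in fermentative wild-type cells. The *mrn1Δ* groups do not overlap, while the wild-type groups do. Its shift was -0.44 in *mrn1Δ* and 0.22 in wild-type, an interaction of -0.66 ± 0.12 (adjusted p = 0.0092). *BAT1*, the mitochondrial branched-chain aminotransferase, averaged 44.3 ± 3.29 CPM in respiratory and 129.7 ± 7.17 CPM in fermentative *mrn1Δ* cells, against 191 ± 10.2 CPM in respiratory and 356 ± 30.8 CPM in fermentative wild-type cells (SD, n = 3 each). Its interaction was -0.65 ± 0.11 (adjusted p = 0.0077). *ILV2*, acetolactate synthase (-0.68 ± 0.12, adjusted p = 0.0077), and *LEU9*, an isopropylmalate synthase that shares reads with *LEU4* (-0.78 ± 0.14, adjusted p = 0.0085), had like fermentative levels in both genotypes. Their genotype difference in fermentative cells had adjusted p-values of 0.44 and 0.65. *ILV3* (-0.44 ± 0.11, adjusted p = 0.047) was lost in 10 of 12 fits that left out a library. *LEU4* (-0.36 ± 0.17, adjusted p = 0.24), *ILV5* (-0.55 ± 0.18, adjusted p = 0.11) and *GDH1* (-0.24 ± 0.17, adjusted p = 0.46) did not pass, and *BAT2*, the cytosolic aminotransferase, was the list member above 0 (0.33 ± 0.11, adjusted p = 0.13).

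*MAE1*, the mitochondrial malic enzyme that makes pyruvate, had 36.7, 37.4 and 38 CPM in respiratory and 171, 172 and 182 CPM in fermentative *mrn1Δ* cells, against 105, 93 and 94.2 CPM in respiratory and 202, 249 and 204 CPM in fermentative wild-type cells. The respiratory groups were far apart. It fell to 0.213 times its fermentative level in *mrn1Δ* and to 0.446 times in wild-type, an interaction of -1.06 ± 0.11 (adjusted p = 0.00053). *ALD5*, a mitochondrial aldehyde dehydrogenase, had -0.88 ± 0.17 (adjusted p = 0.013). *BAP2*, a permease for leucine, isoleucine and valine, was reversed, with 316, 333 and 304 CPM in respiratory and 381, 386 and 355 CPM in fermentative *mrn1Δ* cells, against 409, 412 and 459 CPM in respiratory and 342, 337 and 322 CPM in fermentative wild-type cells. In neither genotype did the 2 carbon sources overlap. The interaction of *BAP2* was -0.59 ± 0.10 (adjusted p = 0.0077). *MAE1*, *ALD5* and *BAP2* are not in the list and were placed beside it after their values were seen. Most of the 15 lowest genes lie outside this pathway.

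The Leu3 motif (CCG and CGG with 4 bases of any kind between them, the same on both strands) was rare in the 300-base windows, in 4.07% of lower and 1.54% of higher genes and in 1.43% of all windows. In the 500 bases before the start codon, a window added after the data were seen, it was in 11.4% of lower genes (14 of 123), 3.08% of higher genes and 3.29% of all genes. Of the 13 list members 8 held it there. Members were chosen partly as known targets of Leu3, so that this share follows from the choice. *MAE1*, *ALD5* and *BAP2* held it as well. The sites of the lower genes of this pathway are printed as before.
LEU1, chrVII:478820-478849, minus strand: ccggttttgtCCGTAACCGGcttcatgagt
LEU1, chrVII:478850-478879, minus strand: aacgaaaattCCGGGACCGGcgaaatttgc
OAC1, chrXI:216850-216879, plus strand: ccgaaagatgCCGGAAACGGtcttaggccg
BAT1, chrVIII:517375-517404, plus strand: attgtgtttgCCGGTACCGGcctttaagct
ILV2, chrXIII:483606-483635, plus strand: ccggagcctgCCGGTACCGGcttggcttca
LEU9, chrXV:522740-522769, plus strand: ccatcatggtCCGGTAACGGtcgtagtgaa
BAP2, chrII:376057-376086, minus strand: ttttgtgggaCCGGAACCGGcatccacatt
MAE1, chrXI:384867-384896, minus strand: gaagtcgtacCCGTTACCGGcatgattgac
ALD5, chrV:303530-303559, plus strand: ttttttggCCGCTACCGGactagcaagggc
The last base of the motif lies 138 bases before the start codon in *BAT1*, 152 in *MAE1* and 178 and 208 in *LEU1*, and between 459 and 483 bases before it in *ILV2*, *OAC1* and *ALD5*. *ILV5* and *GDH1*, which were not called, held a copy as well.

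Synthesis of other amino acids was not called, with 0 of 44 genes in either direction and a median of -0.11. Of these 44 genes 30 were below 0. Sulfate assimilation and methionine metabolism had 3 lower genes of 27 and none higher. For both lists, the shares over all tested genes were 1.12% higher and 2.11% lower. The sulfate and methionine list had a median interaction of -0.22 and a median wild-type shift of -1.565. All genes that fell by 1 to 2 units in wild-type had a median interaction of -0.16. *MET6*, the methionine synthase, averaged 260.3 ± 11.3 CPM in respiratory *mrn1Δ* cells and 490.4 ± 31.4 CPM in respiratory wild-type cells, and 1317 ± 112 CPM in fermentative *mrn1Δ* cells and 1399.7 ± 103 CPM in fermentative wild-type cells (SD, n = 3 each). Its interaction was -0.83 ± 0.12 (adjusted p = 0.0032). *SAM2*, S-adenosylmethionine synthetase, had -0.52 ± 0.10 (adjusted p = 0.013). The sulfate permease gene *SUL2* (-0.71 ± 0.15, adjusted p = 0.02) differed in the other condition, with 149.7 ± 18.3 CPM in *mrn1Δ* and 96.6 ± 15.4 CPM in wild-type in fermentative cells and like levels after the transfer. It was lost in 2 of 12 fits without a library.

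Several cell wall genes differed between the genotypes mainly in fermentative cells. *NCA3*, a SUN family gene linked to the cell wall and to mitochondria, had 55.9, 49.3 and 49.8 CPM in respiratory and 187, 184 and 184 CPM in fermentative *mrn1Δ* cells, against 25.9, 25.6 and 22.6 CPM in respiratory and 50.1, 56.3 and 51.4 CPM in fermentative wild-type cells. The respiratory level in *mrn1Δ* was close to the fermentative level in wild-type. *NCA3* was 3.52 times the wild-type level in fermentative cells and 2.09 times that level in respiratory cells, an interaction of -0.75 ± 0.10 (adjusted p = 0.0026). The fall of *NCA3* was thus larger in *mrn1Δ*, and the genotype difference was smaller after it. All 4 SUN genes had an interaction below 0, with a median of -0.63. *UTH1* had 986, 1094 and 1017 CPM in respiratory and 1968, 1958 and 1838 CPM in fermentative *mrn1Δ* cells, against 929, 1284 and 863 CPM in respiratory and 1046, 1349.6 and 1007 CPM in fermentative wild-type cells. Its interaction of -0.75 ± 0.19 just missed the threshold (adjusted p = 0.052) and passed under 8 of the 21 alternatives. *SIM1* (-0.52 ± 0.23, adjusted p = 0.24) and *SUN4* (-0.41 ± 0.13, adjusted p = 0.099) did not pass.

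*SCW11*, a glucanase of the daughter cell wall, followed the same course. It averaged 68.4 ± 5.25 CPM in respiratory and 137 ± 11.1 CPM in fermentative *mrn1Δ* cells, against 62.6 ± 6.10 CPM in respiratory and 73.3 ± 11.6 CPM in fermentative wild-type cells (SD, n = 3 each). Its interaction was -0.77 ± 0.15 (adjusted p = 0.015) and missed the threshold in 1 of 12 fits that left out a library (adjusted p = 0.051). It was the lower call among 14 genes of daughter-specific cell separation (median -0.22). The share called lower over all tested genes was 2.11%. Among 24 glucan, chitin and wall remodelling enzymes 4 were lower and none higher, with a median of -0.25. *UTR2*, a chitin transglycosylase, was the firmest of them (-0.62 ± 0.11, adjusted p = 0.0092), and it differed after the transfer, with 51.0 ± 0.65 CPM in respiratory *mrn1Δ* cells and 82.6 ± 0.995 CPM in respiratory wild-type cells (SD, n = 3 each). *FKS1*, *SCW10* and *CRH1* had adjusted p-values of 0.045, 0.045 and 0.046 and were each lost in 9 or 10 of 12 fits without a library. Of 30 PIR and GPI-anchored wall proteins, *HPF1* was lower (-1.09 ± 0.26, adjusted p = 0.045, shared reads), and 23 of 30 were below 0 with a median of -0.32. This 1 call was 3.33% of the list, near the 2.11% called lower over all tested genes. *HPF1* was lost in 9 of those 12 fits.

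**Figure D5:**
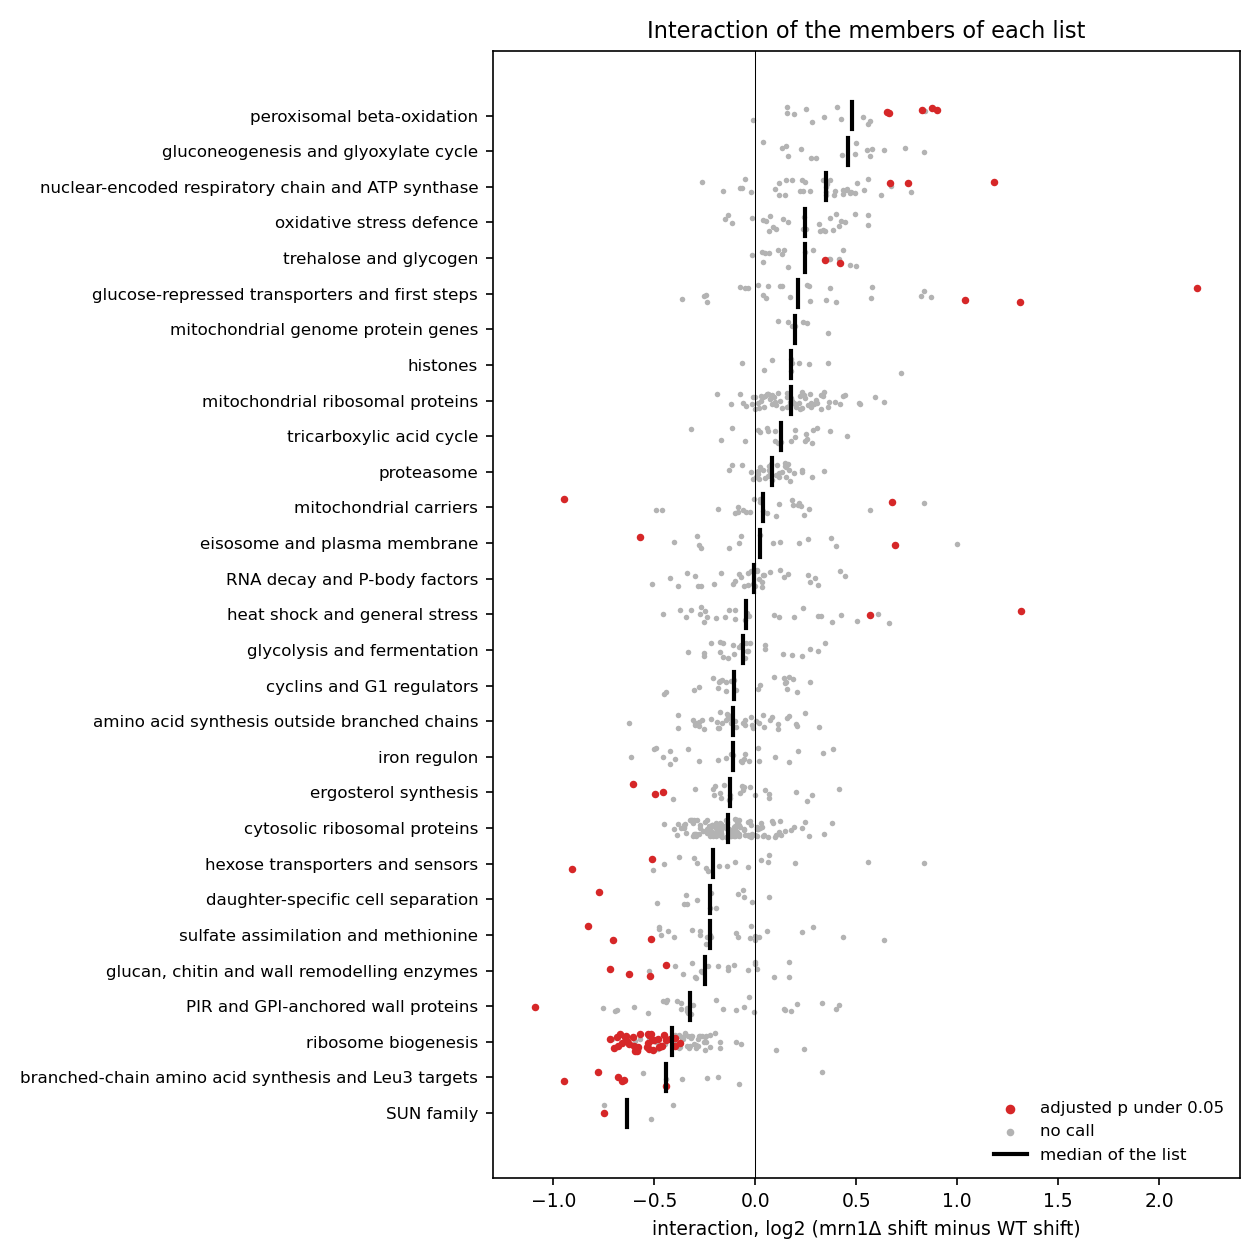
Interaction (horizontal axis, log2, *mrn1Δ* shift minus wild-type shift) of every tested gene of each list (points, red where the adjusted p is under 0.05) and the median of the list (black bar). Peroxisomal beta-oxidation has the highest median at 0.48, and ribosome biogenesis, the branched-chain genes and the SUN family have the lowest at -0.41, -0.44 and -0.63.

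Reversed and damped responses were few. *ECL1*, a gene of chronological life span, had 66.2, 61.8 and 60.6 CPM in respiratory and 92.5, 94 and 98 CPM in fermentative *mrn1Δ* cells, against 118, 87.2 and 97.9 CPM in respiratory and 74.6, 92.7 and 88.5 CPM in fermentative wild-type cells. The fall in *mrn1Δ* was without overlap, and the rise in wild-type was with overlap. Its interaction was -0.84 ± 0.14 (adjusted p = 0.0073). *RIB4*, lumazine synthase of riboflavin synthesis, was the reversed gene in the other direction, with 308, 258 and 287 CPM in respiratory and 241, 221 and 232 CPM in fermentative *mrn1Δ* cells, against 197, 253 and 235 CPM in respiratory and 275, 285 and 264 CPM in fermentative wild-type cells. Its interaction of 0.56 ± 0.13 (adjusted p = 0.03) was lost in 7 of 12 fits without a library.

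Of the damped genes, *SKS1*, a kinase of the adaptation to low glucose, had 30.7, 25.6 and 24.3 CPM in respiratory and 20.6, 19.4 and 22 CPM in fermentative *mrn1Δ* cells, against 42.9, 42.4 and 46.8 CPM in respiratory and 17.6, 19.2 and 22.6 CPM in fermentative wild-type cells. The fermentative levels overlapped between the genotypes and the respiratory levels did not. *SKS1* rose 1.30-fold in *mrn1Δ* and 2.24-fold in wild-type (-0.78 ± 0.15, adjusted p = 0.011). *HXT4*, a hexose transporter that shares reads with its relatives, rose 14.2-fold in *mrn1Δ* and 26.7-fold in wild-type (-0.91 ± 0.19, adjusted p = 0.02), and was lost in 2 of 12 fits. In the list of hexose transporters and sensors *HXT4* and *STD1* were lower of 20, against 2.11% called lower over all tested genes. The median of the list was -0.21, and *STD1* was lost in 8 of 12 fits. *HXT2* (-0.45 ± 0.14, adjusted p = 0.099) and *HXT3* (-0.51 ± 0.14, adjusted p = 0.057) had negative interactions that did not pass, and sharing of reads among these transporters limits what can be said of each. *SUT1*, a sterol uptake regulator (-0.58 ± 0.13, adjusted p = 0.028), and *STB5*, an activator of the pentose phosphate pathway (0.62 ± 0.13, adjusted p = 0.019), were each lost in 4 of 12 fits.

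Beside *OAC1*, *SCW11* and *COX8*, the genes that shifted past the threshold in *mrn1Δ* only were *CRH1* and *MHF1* (0.79 ± 0.19, adjusted p = 0.035, lost in 9 of 12 fits). Those that did so in wild-type only were *HPF1*, *GIS4*, *PRY1* and *YBR219C*. *GIS4* had 34.4 ± 2.22 CPM in respiratory and 34.1 ± 1.16 CPM in fermentative *mrn1Δ* cells, against 45.9 ± 1.71 CPM in respiratory and 33.0 ± 1.35 CPM in fermentative wild-type cells (SD, n = 3 each). Its interaction was -0.46 ± 0.10 (adjusted p = 0.018, lost in 1 of 12 fits). *PRY1*, a secreted sterol-binding protein, had 121 ± 7.30 CPM in respiratory and 132 ± 5.40 CPM in fermentative *mrn1Δ* cells, against 71.7 ± 5.24 CPM in respiratory and 52.9 ± 8.14 CPM in fermentative wild-type cells. Its interaction was -0.57 ± 0.13 (adjusted p = 0.032, lost in 7 of 12 fits). *YBR219C*, a sequence that shares reads, had at most 1.40 CPM in any library.

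Several gene groups showed no call in either direction. These were glycolysis and fermentation (26 genes, median -0.06), the iron regulon (25, -0.11), oxidative stress defence (28, 0.25), histones (10, 0.18), cyclins and regulators of the G1 phase (25, -0.10), the proteasome (35, 0.08) and factors of RNA decay and P-bodies (36, -0.01). Ergosterol synthesis had 3 lower genes of 27 (*ERG25*, *ERG3* and *NCP1*, with interactions of -0.50, -0.46 and -0.61) and a median of -0.12. Of these, *ERG25* and *ERG3* were each lost in 8 and *NCP1* in 7 of the 12 fits that left out a library. Mitochondrial carriers had *PIC2* higher and *OAC1* lower of 27, and the eisosome and plasma membrane list had *YNL194C* higher (lost in 6 of 12 fits) and *PRY1* lower of 17. For these small counts, the shares over all tested genes were 1.12% higher and 2.11% lower. In all, 78 of the 188 genes were in a list and 110 in none. The glycosyltransferase gene *MNN1* was in none, with 20.4 ± 1.12 CPM in respiratory *mrn1Δ* cells and 34.4 ± 0.45 CPM in respiratory wild-type cells (SD, n = 3 each). In fermentative cells it had 93.0 ± 9.89 CPM in *mrn1Δ* and 92.7 ± 6.29 CPM in wild-type, and its interaction was -0.76 ± 0.12 (adjusted p = 0.0037).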

How the data were processed

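Yeast RNA was sequenced in 12 libraries, 3 for each of 4 groups. The authors aligned reads to transcripts with kallisto 0.44.0 and build R64, per the submitters' processing notes, and deposited, for each coding sequence, estimated counts together with TPM (abundance scaled for length and depth). The TPM values were not used. Whether counting used strand is not given in the sources used here, so that overlapping antisense genes cannot be told apart. Estimated counts were rounded to whole numbers, since 624 of 5917 sequences had a value that was not whole. kallisto divides reads between similar sequences, and 592 tested genes, 15 of them called, share reads with another gene and are uncertain.

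Counts were filtered with filterByExpr and scaled by TMM, and 1 model with a coefficient for each group was fitted to all 12 libraries by edgeR 4.0.16 (robust quasi-likelihood test, two-sided) in R 4.3.3. Adjusted p-values are Benjamini-Hochberg values over all 5828 tested genes. Single contrasts gave the shifts and the genotype differences. The SE of each log2 value was taken as its size divided by the square root of the F statistic of its test. A library's floor of 3 counts was 0.113 to 0.185 CPM, which covers counting error only. Per the methods the cultures were grown in triplicate, but the labels do not say that the 3 were independent, and p-values then measure only the spread between these samples.

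Genes were named by rule: the 15 highest and 15 lowest called interactions with a mean of at least 5 CPM, reversed genes, the 5 smallest p-values of each other class, and members of the gene lists. Members and lists were chosen with earlier results of these data known. Alternatives were DESeq2 1.42.0, limma-voom (limma 3.58.1), other scalings and filters, a minimum change, replicate blocks, and each library left out. The code was tested on simulated data. Motifs were searched in the R64 RefSeq genome in 5798 windows, of which 5794 had ATG at the start, with Python 3.11.15. Of the 5917 sequences 5911 matched the annotation by systematic name. The result of 1 called gene is not reported here.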

Additional observations from a re-analysis of the deposited data

Results flagged for a closer look

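The shift differed between the genotypes by the interaction test itself for 65 genes that were higher and 123 that were lower in *mrn1Δ*. The reversed genes were *ECL1* (-0.84), *BAP2* (-0.59), *LEU1* (-0.66) and *RIB4* (0.56), each as the log2 interaction. Among the 6 damped genes were *SKS1* (-0.78), *STB5* (0.62), *HXT4* (-0.91) and *SUT1* (-0.58). Genes with a shift past the threshold in *mrn1Δ* only were *OAC1* (-0.95), *SCW11* (-0.77), *MHF1* (0.79), *COX8* (0.67) and *CRH1* (-0.44). Genes with a shift past the threshold in wild-type only were *YBR219C* (2.91), *GIS4* (-0.46), *PRY1* (-0.57) and *HPF1* (-1.09). *YBR219C* rests on 3 to 29 counts per library. The groups of 3 libraries are too small for a test of single outlying libraries.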

How the results depend on the processing

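Over 21 alternative settings no called gene changed direction, which the choice of these genes from the same libraries made likely. Among the values of 116 named genes 2015 kept their side of the threshold, 360 lost and 56 gained a call. The interaction of *CAT8*, which was not called, changed sign, from -0.21 without wild-type fermentative replicate 2 to 0.11 without wild-type fermentative replicate 1. Leaving out 1 library moved the calls between 81 and 501, the higher genes between 26 and 155, the lower genes between 50 and 346, the amplified genes between 70 and 370, the damped between 2 and 36 and the reversed between 2 and 13. DESeq2 called 439 genes, 116 higher and 323 lower, with 383 amplified and 14 damped. Same-numbered libraries deviated together within a genotype, with r from 0.0319 to 0.38, and in either direction across genotypes, with r from -0.236 to 0.222. As not every pair was over 0.1, the numbers were not taken as pairs, but a shared culture or day within a genotype was not tested. With a replicate block over all 12 libraries, 261 genes were called, 99 of them higher, with 223 amplified and 10 damped. With a replicate block within genotype there were 415 calls, 155 higher and 260 lower, with 343 amplified, 18 damped and 10 reversed. The causes of these changes were not tested. Genes called in *mrn1Δ* only (5) and wild-type only (4) numbered 17 and 20 with DESeq2, 11 and 11 with the block over all libraries, 23 and 21 with that within genotype, 3 and 4 with limma-voom, and 6 and 7 with RLE scaling. The remaining settings kept the counts of calls, amplified, damped and reversed genes within 1.5 times. In all 9 settings that kept every library 109 genes were called. The motif window of 500 bases was added after the data were seen. Depth limits genes near the floor of 3 counts, where *YBR219C* was the 1 call under 5 CPM.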
